A study of Saccharomyces cerevisiae with 18 samples.

Results

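The 20 min between 40 and 60 min without potassium were described in wild-type budding yeast from 8 of the 18 arrays of a time course. The 4 arrays of 60 min were set against the 4 arrays of 40 min, chosen by the time in their labels. Every array was hybridised with 2 RNAs of BY4741, a MATa laboratory strain that also lacks HIS3, LEU2, MET15 and URA3. One RNA came from cells in K-free medium, a Translucent medium with about 15 µM residual potassium, and the other from cells in the same medium with 50 mM KCl, sampled after the same time. The measured value is therefore a log2 ratio of K-free over KCl cells, and the difference described here is the ratio at 60 min minus the ratio at 40 min. Growth was at 28 °C until the absorbance reached 0.6, and the cells were then washed and put back into the medium. The labels name the K-free medium for the growth before the wash as well, while the series describes a sudden shortage, so how long the cells had been without potassium before the wash is not settled here. Each of these time points had 2 independent experiments with a dye swap each. Of 6212 genes in the table, 4010 had values on at least 3 of 4 arrays at both times and were compared, 3065 of them with all 8 values.

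Potassium is the main cation of the yeast cytosol and is taken up through the Trk1 and Trk2 transporters, driven by the plasma membrane proton pump Pma1. Growing yeast cells spend much of their transcription on ribosomes: RNA polymerase I and III make the ribosomal RNAs, a large set of assembly factors acts in the nucleolus, and a family of mostly duplicated genes codes for the ribosomal proteins. In many stresses yeast lowers these genes together and raises genes for heat shock proteins, storage carbohydrates and alternative isozymes, in part through the factors Msn2 and Msn4. The step was examined for which functions went further in a direction already seen at 40 min, which began after 40 min, and which turned.

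The ratios were wider at 60 min than at 40 min. Each ratio is relative to the rest of its array, so a change in mRNA per cell common to all genes would not show, and fewer cells of a type and less RNA per cell cannot be told apart. The SD of the log2 ratio over genes was 1.06 to 1.30 on the 60 min arrays and 0.61 to 0.91 on the 40 min arrays. Pairs of arrays within a time point correlated across genes with r of 0.80 to 0.95 at 60 min and 0.61 to 0.85 at 40 min. The 60 min arrays held values for 3913 to 4919 genes and the 40 min arrays for 4493 at array 1, 4366 at array 2, 5372 at array 3 and 5176 at array 4. The median difference over the 4010 genes was -0.11, and 43.3% of genes lay above 0 and 56.7% below it. A difference of at least 1 (log2) was seen for 157 genes on the higher side and 363 on the lower side. In the plot of the 60 min mean against the 40 min mean, the ribosomal protein genes formed a dense group, near 0 at 40 min and far below 0 at 60 min.

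**Figure D1:**
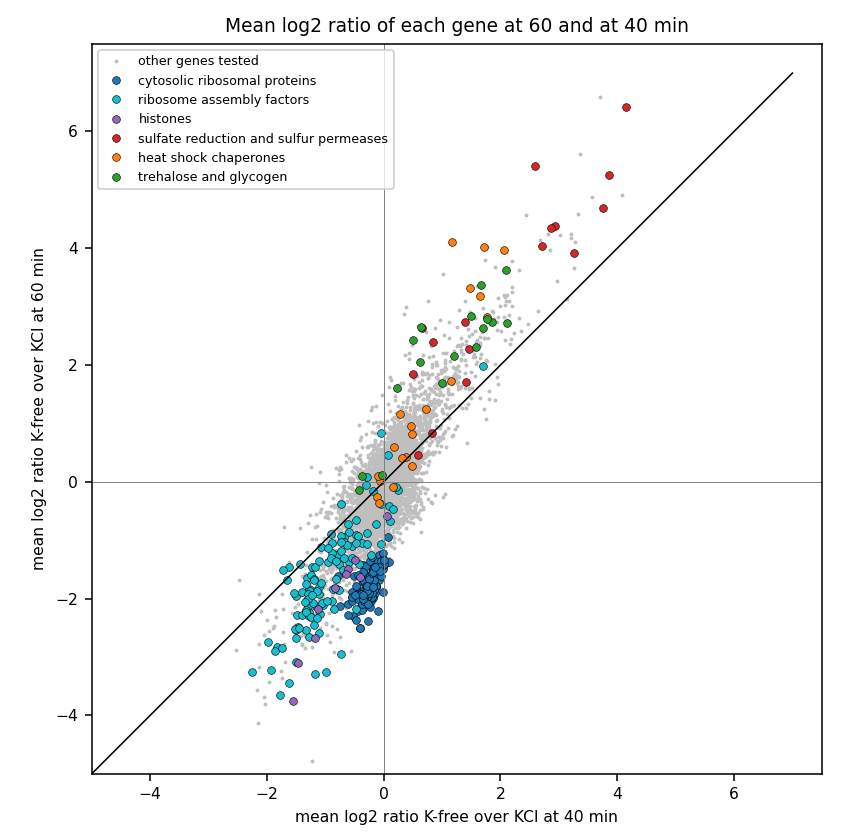
Mean log2 ratio K-free over KCl of 4010 genes at 60 min (vertical axis) against 40 min (horizontal axis), with 6 groups of genes coloured and the line of equal ratios drawn. The 118 cytosolic ribosomal protein genes lie below the line, with a median of -1.85 at 60 min and -0.26 at 40 min.

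No gene passed the test of the step itself. With the arrays of a dye-swap pair averaged to 1 value per experiment, limma called 0 of 4010 genes at an adjusted p of 0.05 (0%), and the lowest adjusted p was 0.146. At an unadjusted p under 0.05 there were 307 genes higher (7.66%) and 527 lower (13.1%) at 60 min, and at an adjusted p under 0.2 there were 216 higher and 435 lower. Which arrays form an experiment is not stated in the labels, and the count turned on it: with the other pairing of arrays of opposite dye, 791 genes passed. Over all time points the consensus correlation of paired arrays was 0.258 in the pairing used here and -0.236 in the other. Averaging arrays that deviate in opposite directions narrows the spread between the averages, so the 791 may be too high. With the pairing used here but the arrays kept apart and the experiment as a random block, a fit referred to below as the random-block fit, 107 genes were higher (2.67%) and 283 lower (7.06%) at an adjusted p of 0.05. All 60 min arrays lay on 1 side of all 40 min arrays for 378 genes on the higher side (9.43%) and 518 on the lower side (12.9%), and these genes are called separated below. Of the 390 genes called in the random-block fit, 352 were separated. That fit keeps the arrays of a dye swap as separate values, tied by 1 correlation for all genes. The 390 may therefore be too high as well. Scaling every array to the same spread or quantile normalization left 0 genes in that fit, so list medians after scaling are given below as well. Without experiment A of 60 min, 13 genes passed on experiment values, 3 higher and 10 lower, and without any other experiment or array none did. In the following, differences are log2 differences with the SE of the fit on experiment values (2 experiments a time point). RPS27A, BRX1, DBP7, NSA1, HTZ1, GUK1, HPT1, DBF2, MUP1, MET14, MET16, PHO5, SSE2, HSP82, GDB1, GND1, SOL3, TKL1, HXK2, GPD1, GAS1, FTR1 and FUS1 were singled out after their values were seen, and the other genes follow the naming rule given with the processing.

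Among separated genes the 12 highest differences included heat shock, carbon and sulfur genes. HSP26, a small heat shock protein, had log2 ratios of 4.60, 3.78, 4.04 and 4.02 at 60 min and 0.56, 0.87, 1.76 and 1.47 at 40 min, a difference of 2.95 (SE 0.91, adjusted p = 0.156). SSA4, a stress-induced HSP70 chaperone, had 2.90, 4.49, 3.96 and 4.71 at 60 min and 1.73, 2.43, 1.40 and 1.33 at 40 min, a difference of 2.30 (SE 0.44, adjusted p = 0.146). In both genes the mean ratio at 40 min was already above 0. GRE1, a hydrophilin, had 6.67, 6.80, 6.15 and 6.77 at 60 min and 4.92, 2.39 and 2.56 on 3 arrays at 40 min, a difference of 2.90 (SE 0.81, adjusted p = 0.154). MUP3, a low-affinity methionine permease, had 4.27, 6.92 and 6.18 on 3 arrays at 60 min and 2.56, 2.90, 1.90 and 2.98 at 40 min, a difference of 2.83 (SE 0.70, adjusted p = 0.146). CYB2, the mitochondrial lactate dehydrogenase, had 3.40, 3.38, 2.60 and 3.03 at 60 min and 0.96, 0.39 and 0.70 on 3 arrays at 40 min, a difference of 2.35 (SE 0.33, adjusted p = 0.146). HXT5, a hexose transporter made by slowly growing cells, had 3.56, 3.76, 2.95 and 3.94 at 60 min and 1.63, 1.69, -0.26 and 1.03 at 40 min, a difference of 2.53 (SE 0.68, adjusted p = 0.154). In each of these 4 genes array 3 of 40 min had the lowest value present.

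PDC6, a minor pyruvate decarboxylase, had 0.75, 1.84, 4.38 and 5.01 at 60 min and 0.55, 0.66, -0.33 and 0.65 at 40 min, a difference of 2.61 (SE 1.02, adjusted p = 0.209), and its 60 min arrays fell into a low pair, 1 and 2, and a high pair, 3 and 4. CIT2, the peroxisomal citrate synthase and a target of retrograde signalling, had 5.63, 5.41, 5.38 and 6.02 at 60 min and 3.12, 3.69, 2.80 and 3.83 at 40 min, a difference of 2.25 (SE 0.36, adjusted p = 0.146). PST1, a cell wall protein induced by wall damage, had 3.35, 2.04, 2.78 and 2.48 at 60 min and 0.75, -0.14, 0.40 and 1.30 at 40 min, a difference of 2.08 (SE 0.33, adjusted p = 0.146). ATG8, the ubiquitin-like protein of the autophagosome membrane, had 3.71, 3.22, 3.75 and 4.54 at 60 min and 2.07, 2.39 and 0.41 on 3 arrays at 40 min, a difference of 2.07 (SE 0.84, adjusted p = 0.232). The remaining members of the 12 were TKL2, the minor transketolase (difference 2.26, SE 0.64), and RGI1, a protein of respiratory growth (difference 2.14, SE 0.85). With arrays scaled to equal spread all 12 stayed above 0, from 0.05 for CIT2 to 1.41 for PDC6.

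**Figure D2:**
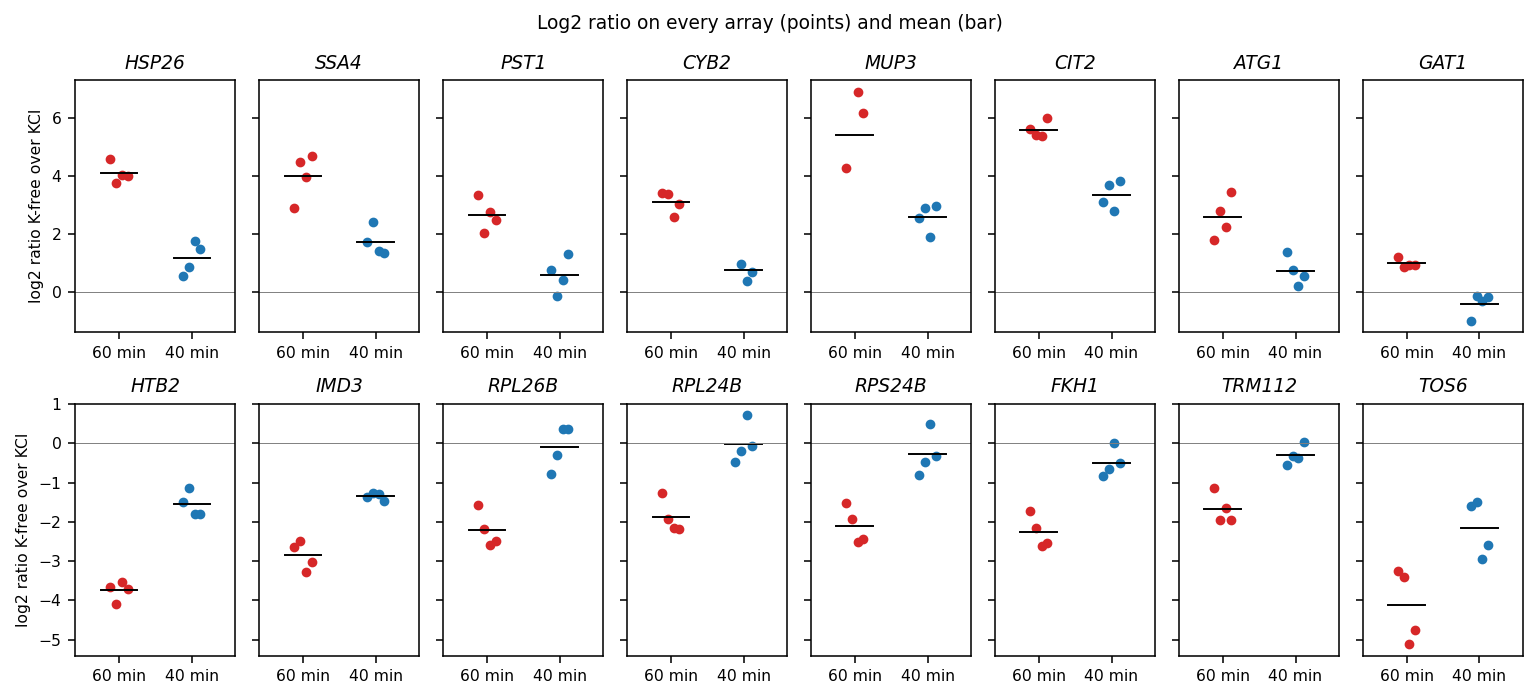
Log2 ratio K-free over KCl on each array (points) and mean (bar) at 60 min (left, red) and 40 min (right, blue) for 8 genes that were higher and 8 that were lower at 60 min. In every panel the 60 min arrays lie on 1 side of the 40 min arrays, for example -3.65, -4.09, -3.52 and -3.72 against -1.50, -1.14, -1.80 and -1.80 for HTB2.

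The 12 lowest differences among separated genes were led by ribosome genes. MRT4, a factor of 60S assembly, had -1.30, -1.68, -4.11 and -4.71 at 60 min and -1.07, -0.72, -0.37 and -0.77 at 40 min, a difference of -2.22 (SE 1.12, adjusted p = 0.297). The 60 min arrays of MRT4 again fell into 2 pairs, with arrays 3 and 4 far below arrays 1 and 2. RPL26B, a 60S protein, had -1.56, -2.18, -2.60 and -2.49 at 60 min and -0.79, -0.30, 0.36 and 0.36 at 40 min, a difference of -2.11 (SE 0.43, adjusted p = 0.146). RPL9A, another 60S protein, had -1.70, -2.19, -2.93 and -2.73 at 60 min and -0.69, -0.19, 0.10 and -0.26 at 40 min, a difference of -2.13 (SE 0.58, adjusted p = 0.15). RPS22A, a 40S protein, had -1.78, -2.44, -2.91 and -2.88 at 60 min and -1.10, -0.36, 0.25 and -0.41 at 40 min, a difference of -2.10 (SE 0.58, adjusted p = 0.152). In all 3 ribosomal protein genes some or all 40 min arrays were near 0. RPS9B (difference -2.10, SE 0.66), RPL8B (difference -1.91, SE 0.46) and RPS16B (difference -1.89, SE 0.59) had the same form. RRB1, a chaperone of ribosomal protein L3, had -2.99, -3.80 and -3.40 on 3 arrays at 60 min and -1.17, -1.38, -1.03 and -1.11 at 40 min, a difference of -2.12 (SE 0.89, adjusted p = 0.235). HTB2, a histone H2B gene, had -3.65, -4.09, -3.52 and -3.72 at 60 min and -1.50, -1.14, -1.80 and -1.80 at 40 min, a difference of -2.19 (SE 0.48, adjusted p = 0.146). TOS6, a cell wall protein gene, had -3.25, -3.41, -5.12 and -4.76 at 60 min and -1.60, -1.50, -2.93 and -2.59 at 40 min, a difference of -1.98 (SE 0.62, adjusted p = 0.156). PPT1, a protein phosphatase that acts on Hsp90, had -1.83, -3.18 and -3.80 on 3 arrays at 60 min and -0.48, -0.80, -1.08 and -0.66 at 40 min, a difference of -1.91 (SE 0.60, adjusted p = 0.159). The unnamed reading frame YCR097Wa, with 3 values at each time, was the twelfth (difference -2.07, SE 0.64). After scaling, all 12 stayed below 0, from -1.28 for RPL26B to -0.40 for TOS6.

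The cytosolic ribosomal protein genes were near 0 at 40 min and low at 60 min. All 118 measured members were lower at 60 min than at 40 min, where 56.7% of all genes were. Of them 90 were separated (76.3%) and 102 passed in the random-block fit (86.4%), beside 12.9% and 7.06% of all genes. Their median ratio was -1.85 at 60 min and -0.26 at 40 min, and the median difference was -1.56 with an SD of 0.23 over members. The differences ran from -2.13 to -0.82, a narrow band beside the SD of 0.661 over all genes. Array by array, the 72 genes of the large subunit had medians of -1.13, -1.94, -2.11 and -2.12 at 60 min and -0.85, -0.31, 0.41 and -0.25 at 40 min. The 46 genes of the small subunit had -1.14, -1.86, -2.15 and -2.09 at 60 min and -0.87, -0.35, 0.46 and -0.29 at 40 min. In both subunits array 1 was the highest at 60 min and the lowest at 40 min, and array 3 of 40 min was the only one of the 8 with a median above 0. In the test of each time against 0, 118 of the 118 passed below 0 at 60 min, where 24.9% of 4127 genes were, and 0 at 40 min, where 2.83% of 4703 genes were. The median difference was -1.58 for the large and -1.51 for the small subunit. After scaling the medians were -0.85 and -0.81, and after quantile normalization -0.85 and -0.80, the largest remaining shifts of any list. Paralogs such as RPL26A and RPL26B are nearly identical, so spots may read both copies.

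Within the family, RPL24B of the 60S subunit had -1.28, -1.93, -2.16 and -2.19 at 60 min and -0.47, -0.20, 0.72 and -0.07 at 40 min, a difference of -1.88 (SE 0.40, adjusted p = 0.146). RPS24B of the 40S subunit had -1.51, -1.92, -2.51 and -2.44 at 60 min and -0.80, -0.46, 0.49 and -0.33 at 40 min, a difference of -1.82 (SE 0.42, adjusted p = 0.146). The smallest difference of the family belonged to RPS27A, at -1.36, -2.06, -1.48 and -1.56 at 60 min and -1.21, -0.80, -0.21 and -0.94 at 40 min, a difference of -0.82 (SE 0.27, adjusted p = 0.168); its 40 min ratio was already below 0 on all arrays. The mitochondrial ribosomal protein genes, coded by a separate set of nuclear genes, were near 0 at both times: 50 members had a median ratio of -0.07 at 60 min and 0.08 at 40 min and a median difference of -0.11 as deposited and -0.09 after scaling, with 4 separated on the lower and 1 on the higher side and 0 called in the random-block fit.

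Ribosome assembly factors were low at 40 min and lower at 60 min. The 118 measured factors had a median ratio of -1.71 at 60 min and -1.07 at 40 min. Their median difference was -0.69, and 107 were lower. On the lower side 49 were separated (41.5%, beside 12.9% of all genes) and 14 called in the random-block fit (11.9%, beside 7.06%). The 62 factors of the 60S pathway had a median difference of -0.78 and the 56 of the 40S pathway -0.58. After scaling these medians were -0.08 and 0.02, and after quantile normalization -0.07 and 0.06, so the sign for the 40S factors flipped. BRX1, a 60S assembly factor, had -3.11, -2.61, -3.15 and -3.45 at 60 min and -1.62, -1.46, -1.66 and -1.28 at 40 min, a difference of -1.58 (SE 0.43, adjusted p = 0.152). YTM1, a 60S factor removed late in the nucleolus, had -1.29, -2.81, -5.11 and -4.57 at 60 min and -2.27, -1.46, -1.75 and -0.98 at 40 min, a difference of -1.83 (SE 0.84, adjusted p = 0.269), and its array 1 of 60 min lay among the 40 min values. ALB1, a 60S shuttling factor, had -2.18, -3.51, -4.72 and -4.22 at 60 min and -2.40, -1.89, -1.42 and -1.39 at 40 min, a difference of -1.88 (SE 0.70, adjusted p = 0.198). ECM16, a helicase of the small-subunit processome, had the lowest mean difference of the factors (difference -2.26, SE 1.08) and rested on array 3 of 60 min: its values were -1.81, -0.99 and -5.11 on 3 arrays at 60 min and -0.93, -1.28, -1.16 and -0.59 at 40 min. SNU13, a protein shared by box C/D ribonucleoproteins and the spliceosome, had -1.43, -2.10, -2.46 and -2.74 at 60 min and -1.16, -0.83, 0.10 and 0.00 at 40 min, a difference of -1.71 (SE 0.43, adjusted p = 0.146). Against the list, DBP7, a helicase of 60S assembly, had 0.76, 0.85 and 0.98 on 3 arrays at 60 min and -0.25, 0.31, -0.14 and -0.06 at 40 min, a difference of 0.88 (SE 0.27, adjusted p = 0.156). NSA1, another 60S factor, had 0.73, 0.55, 0.29 and 0.25 at 60 min and 0.08, 0.21, 0.00 and -0.03 at 40 min, a difference of 0.39 (SE 0.23, adjusted p = 0.365); these were the 2 factors separated on the higher side.

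**Figure D3:**
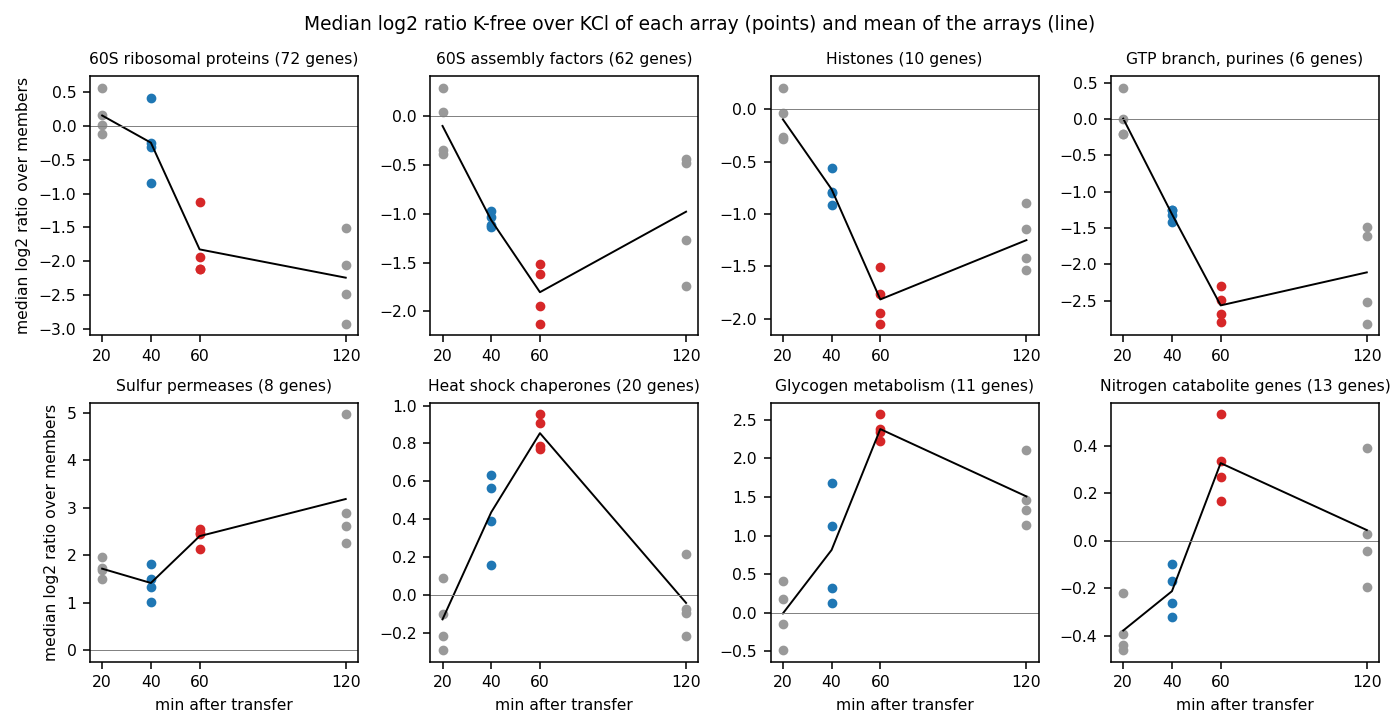
Median log2 ratio K-free over KCl over the members of 8 gene lists, by time after transfer in min; points are the 4 arrays of a time, lines join their means. Medians run over the members with a value on that array. The 72 60S ribosomal protein genes have array medians of -1.13, -1.94, -2.11 and -2.12 at 60 min (red) and -0.85, -0.31, 0.41 and -0.25 at 40 min (blue).

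Genes of transcription and translation machinery were lower as well. Of 15 subunits of RNA polymerase I and III, 14 were lower at 60 min. In the random-block fit 5 passed (33.3%, beside 7.06% of all genes). The median ratio was -0.97 at 60 min and -0.56 at 40 min. RPA12, a polymerase I subunit for RNA cleavage, had -1.77, -2.16, -2.95 and -3.64 at 60 min and -1.38, -0.67, -1.10 and -0.71 at 40 min, a difference of -1.66 (SE 0.48, adjusted p = 0.154). RPA34 had a difference of -1.60 (SE 0.56) and RPC19, shared by both polymerases, one of -1.53 (SE 0.43). RPA135, the second-largest subunit of polymerase I, had -2.07, -1.86, -2.92 and -2.63 at 60 min and -1.50, -1.41, -1.08 and -1.09 at 40 min, a difference of -1.10 (SE 0.45, adjusted p = 0.223). Their 60 min arrays lay below all 40 min arrays. The translation factors, 37 genes, had medians of -0.84 at 60 min and -0.27 at 40 min. Of them 34 were lower, 19 separated (51.35%, beside 12.9% of all genes) and 4 called in the random-block fit (10.8%, beside 7.06%). YEF3, the fungal elongation factor eEF3, had -1.22, -1.54, -2.42 and -2.03 at 60 min and -0.64, 0.29 and -0.63 on 3 arrays at 40 min, a difference of -1.40 (SE 0.53, adjusted p = 0.199). TEF4, a subunit of eEF1B, had -0.75, -1.34, -1.79 and -1.67 at 60 min and -0.35, -0.26, 0.39 and -0.39 at 40 min, a difference of -1.23 (SE 0.43, adjusted p = 0.177). All 16 aminoacyl-tRNA synthetases measured were lower at 60 min, with a median difference of -0.55 and 5 separated (31.25%, beside 12.9% of all genes). KRS1, the lysyl-tRNA synthetase, was the 1 called in the random-block fit (difference -0.96, SE 0.35). That is 6.25% of the list, near the 7.06% of all genes called lower. TRM112, a partner of several methyltransferases of tRNA, rRNA and release factors, had -1.13, -1.95, -1.65 and -1.95 at 60 min and -0.56, -0.31, -0.38 and 0.05 at 40 min, a difference of -1.37 (SE 0.26, adjusted p = 0.146). After scaling, the median differences were -0.20 for the polymerases, -0.24 for the translation factors and -0.25 for the synthetases.

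Chaperones that act on nascent chains at the ribosome were lower at 60 min. All 5 measured were lower, with a median of -0.73 at 60 min and 0.03 at 40 min. Of them 3 were separated and 3 called in the random-block fit (60% each, beside 12.9% and 7.06% of all genes). SSB2, an HSP70 for nascent chains, had -0.87, -1.46, -2.08 and -1.88 at 60 min and -0.69, -0.07, -0.11 and -0.24 at 40 min, a difference of -1.30 (SE 0.49, adjusted p = 0.199). EGD2, a subunit of the nascent polypeptide-associated complex, had -0.67, -0.97, -0.71 and -0.83 at 60 min and -0.22, 0.14, 0.66 and 0.17 at 40 min, a difference of -0.98 (SE 0.25, adjusted p = 0.146), and its partner EGD1 differed by -0.86 (SE 0.26). The median difference after scaling was -0.55.

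Several heat shock chaperones, which refold or hold damaged proteins, were higher at 60 min. The 20 measured genes had a median ratio of 0.89 at 60 min and 0.47 at 40 min. On the higher side 8 were separated (40%, beside 9.43% of all genes), and 0 on the lower side. In the random-block fit 4 passed (20%, beside 2.67%). Besides HSP26 and SSA4 the last were HSP104, the disaggregase, and SSE2, an HSP110 exchange factor. HSP104 had 3.35, 3.56, 2.80 and 3.58 at 60 min and 2.07, 1.83, 1.56 and 0.46 at 40 min, a difference of 1.84 (SE 0.43, adjusted p = 0.146). SSE2 had 3.03, 3.16, 2.86 and 3.69 at 60 min and 2.16, 2.24, 1.49 and 0.69 at 40 min, a difference of 1.54 (SE 0.46, adjusted p = 0.156). HSP82, the inducible HSP90, had 1.13, 0.82 and 1.35 on 3 arrays at 60 min and 0.48, 0.35, 0.39 and -0.13 at 40 min, a difference of 0.89 (SE 0.37, adjusted p = 0.235). HSP12, a membrane-associated stress protein often read as a marker of Msn2 and Msn4 activity, had 2.02, 1.39, 0.66 and 1.15 at 60 min and 1.75, 2.09, 0.81 and 0.04 at 40 min, a difference of 0.13 (SE 0.98, adjusted p = 0.944), so its times overlapped widely and its difference changed sign with the scaling. The list median was 0.46 as deposited, 0.09 after scaling and 0.15 after quantile normalization.

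Most other general stress genes had ratios above 0 at both times. The 27 measured genes of Msn2 and Msn4 type had a median ratio of 2.32 at 60 min and 1.43 at 40 min, and 24 were higher. On that side 5 were separated (18.5%, beside 9.43% of all genes) and 2 called in the random-block fit (7.41%, beside 2.67%). Their median difference was 0.82. After scaling the median was -0.06 and after quantile normalization -0.02, so the direction flipped. In the test against 0, 22 passed above 0 at 60 min and 16 at 40 min. HBT1, a target of the ubiquitin-like protein Hub1, had 2.06, 2.16, 2.35 and 2.11 at 60 min and 1.65, 0.32, -0.23 and -0.28 at 40 min, a difference of 1.81 (SE 0.42, adjusted p = 0.146). ALD2, a cytosolic aldehyde dehydrogenase, had 4.06, 3.94, 3.40 and 3.75 at 60 min and 2.82, 3.24, 1.46 and 1.25 at 40 min, a difference of 1.59 (SE 0.55, adjusted p = 0.177). Its neighbour ALD3, nearly the same in sequence, had 4.98, 4.57, 3.74 and 3.66 at 60 min and 3.78, 3.79, 2.21 and 1.47 at 40 min, a difference of 1.43 (SE 0.64, adjusted p = 0.262), with an overlap. CTT1, the cytosolic catalase, had 3.66, 2.81, 2.62 and 3.33 at 60 min and 2.13, 2.86, 2.28 and 1.11 at 40 min, a difference of 1.01 (SE 0.41, adjusted p = 0.225). In ALD2, ALD3 and CTT1 array 4 of 40 min was the lowest of all 8.

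Genes of both synthesis and breakdown of the storage carbohydrates were higher at 60 min. All 11 glycogen genes measured were higher at 60 min, with medians of 2.30 at 60 min and 0.64 at 40 min. All 6 trehalose genes were higher as well, with medians of 2.57 at 60 min and 1.49 at 40 min. In the random-block fit 3 glycogen and 2 trehalose genes were called (27.3% and 33.3%, beside 2.67% of all genes). GLC3, the glycogen branching enzyme, had 3.08, 3.50, 2.87 and 4.01 at 60 min and 2.07, 2.19, 1.69 and 0.70 at 40 min, a difference of 1.70 (SE 0.49, adjusted p = 0.154). GDB1, the debranching enzyme, had 2.74, 2.57, 2.87 and 3.20 at 60 min and 2.17, 2.50, 1.13 and 0.16 at 40 min, a difference of 1.36 (SE 0.52, adjusted p = 0.205). PIG2, a presumed targeting subunit of the Glc7 phosphatase, had 2.14, 3.92 and 2.28 on 3 arrays at 60 min and 1.13, 1.19 and 0.13 on 3 arrays at 40 min, a difference of 2.01 (SE 0.42, adjusted p = 0.146). GSY1, a glycogen synthase, differed by 1.43 (SE 0.83) with overlapping arrays. On the trehalose side ATH1, the acid trehalase, had 2.64, 1.55 and 2.86 on 3 arrays at 60 min and 1.08, 0.05 and -0.23 on 3 arrays at 40 min, a difference of 1.93 (SE 0.44, adjusted p = 0.146). NTH1, the neutral trehalase, had 2.20, 2.07, 2.13 and 2.25 at 60 min and 1.52, 1.56, 1.11 and 0.65 at 40 min, a difference of 0.95 (SE 0.33, adjusted p = 0.182). TPS1, the synthase, had 3.06, 2.61, 2.44 and 2.81 at 60 min and 2.39, 2.70, 1.74 and 0.59 at 40 min, a difference of 0.88 (SE 0.56, adjusted p = 0.384), and its arrays overlapped. Scaling left a median difference of 0.36 for glycogen and 0.08 for trehalose, where quantile normalization gave -0.01 and flipped the sign.

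Enzymes of carbon metabolism with a duplicate lay on both sides. The 11 pentose phosphate genes had a median difference of -0.39 as deposited and -0.33 after scaling, with 3 separated on the higher side and 3 on the lower. GND2, the minor phosphogluconate dehydrogenase, had 2.23, 2.60, 2.46 and 2.80 at 60 min and 1.05, 1.81, 0.69 and 0.57 at 40 min, a difference of 1.49 (SE 0.32, adjusted p = 0.146). GND1, its major copy, had 0.26, -0.65, -0.37 and 0.27 at 60 min and 0.37, 1.09, 1.42 and 0.06 at 40 min, a difference of -0.86 (SE 0.26, adjusted p = 0.156). TKL2 had 3.97, 4.24, 3.85 and 4.05 at 60 min and 2.37, 3.30, 0.17 and 1.25 at 40 min, and the major transketolase TKL1 had 0.14, -0.32, -0.24 and -0.11 at 60 min and -0.05, 0.71, 0.27 and 0.12 at 40 min, a difference of -0.39 (SE 0.30, adjusted p = 0.453). SOL3, a phosphogluconolactonase, differed by -0.74 (SE 0.26). RPE1, the ribulose phosphate epimerase, had -1.04, -2.34, -2.47 and -2.27 at 60 min and -1.18, -0.23, -0.19 and -0.25 at 40 min, a difference of -1.57 (SE 0.38, adjusted p = 0.146), and in it array 1 stood apart at both times. RKI1, the ribose phosphate isomerase, had -1.86, -2.48, -3.05 and -3.18 at 60 min and -1.80, -1.45 and -0.60 on 3 arrays at 40 min, a difference of -1.23 (SE 0.51, adjusted p = 0.23). After scaling GND2 and TKL2 were at 0.55 and 0.68, and GND1, TKL1, SOL3, RPE1 and RKI1 at -0.72, -0.33, -0.66, -0.78 and -0.27. The arrays of GND1 and TKL1 overlapped between the times, while those of GND2, TKL2 and SOL3 did not.

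**Figure D4:**
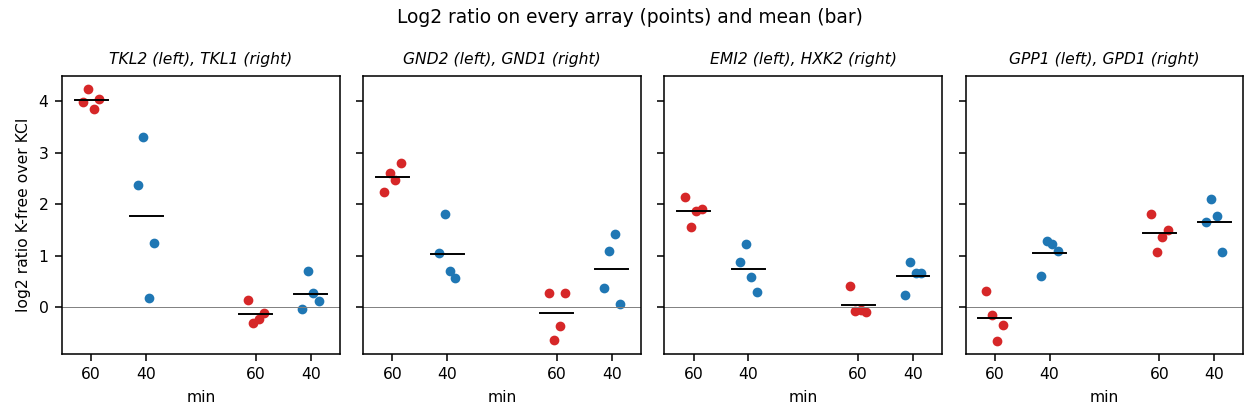
Log2 ratio K-free over KCl on each array (points) and mean (bar) at 60 min (red) and 40 min (blue) for pairs of enzymes of carbon metabolism. TKL2, GND2 and EMI2 were higher at 60 min, with mean differences of 2.26, 1.49 and 1.12, and TKL1, GND1 and HXK2 were lower, with -0.39, -0.86 and -0.56.

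Of 17 hexose transporters and kinases 14 were higher at 60 min, with a median difference of 0.43 as deposited and 0.19 after scaling. On the higher side 2 were separated (11.8%), near the 9.43% of all genes, and on the lower side 0, beside 12.9% of all genes. EMI2, a hexokinase-like protein, had 2.14, 1.55, 1.87 and 1.90 at 60 min and 0.88, 1.22, 0.59 and 0.28 at 40 min, a difference of 1.12 (SE 0.42, adjusted p = 0.199), while HXK2, the main glucose hexokinase, had 0.41, -0.07, -0.07 and -0.10 at 60 min and 0.23, 0.88, 0.66 and 0.67 at 40 min, a difference of -0.56 (SE 0.30, adjusted p = 0.309) with overlapping arrays. HXT2, a high-affinity hexose transporter, had -2.93, -2.63 and -2.15 on 3 arrays at 60 min and -0.11, 0.05, -2.56 and -2.09 at 40 min, a difference of -1.48 (SE 0.66, adjusted p = 0.255), with its 40 min arrays split between 1 and 2 near 0 and 3 and 4 near the 60 min level. ALD4, the mitochondrial aldehyde dehydrogenase, had 2.07, 1.41, 1.65 and 1.70 at 60 min and 0.78, 0.73, 0.61 and 0.32 at 40 min, a difference of 1.10 (SE 0.24, adjusted p = 0.146). The 13 glycolytic enzymes were near 0 at both times, with a median difference of -0.07 as deposited and -0.11 after scaling, and 0 separated on the higher and 0 on the lower side. GPP1, a glycerol phosphatase, had 0.31, -0.15, -0.66 and -0.35 at 60 min and 0.61, 1.29, 1.23 and 1.09 at 40 min, a difference of -1.27 (SE 0.39, adjusted p = 0.156), so its ratio was above 0 on all arrays at 40 min and near or below 0 at 60 min. GPD1, the dehydrogenase of the preceding reaction, had 1.81, 1.07, 1.36 and 1.50 at 60 min and 1.65, 2.10, 1.77 and 1.07 at 40 min, a difference of -0.21 (SE 0.36, adjusted p = 0.739) and overlapped. DAK1, a dihydroxyacetone kinase of glycerol use, had 2.74, 2.30, 2.06 and 2.18 at 60 min and 1.33, 1.49, 1.34 and 0.86 at 40 min, a difference of 1.06 (SE 0.29, adjusted p = 0.15).

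The sulfate reduction enzymes had the highest median ratio of all lists at both times. BY4741 lacks MET15 and needs an organic sulfur source, a condition that both RNAs of every array share. The 8 enzymes measured had a median ratio of 4.19 at 60 min and 2.90 at 40 min. On the higher side 5 were separated (62.5%, beside 9.43% of all genes) and 3 passed in the random-block fit (37.5%, beside 2.67%). In the test of each time against 0, 7 of the 8 passed above 0 at 60 min, where 21.4% of all genes were, and 6 at 40 min, where 4.51% were. MET5, the sulfite reductase beta subunit, had 4.04, 4.72, 4.41 and 4.33 at 60 min and 3.10, 2.82 and 2.74 on 3 arrays at 40 min, a difference of 1.44 (SE 0.23, adjusted p = 0.146). MET10, its alpha subunit, had 4.42, 3.56, 4.30 and 3.87 at 60 min and 2.56, 2.82 and 2.88 on 3 arrays at 40 min, a difference of 1.33 (SE 0.26, adjusted p = 0.146). MET1, an enzyme of sirohaem synthesis, had 4.20, 4.41 and 4.56 on 3 arrays at 60 min and 2.74, 2.86, 3.06 and 2.79 at 40 min, a difference of 1.48 (SE 0.30, adjusted p = 0.146). MET3, ATP sulfurylase, had 5.45, 5.28, 5.21 and 5.10 at 60 min and 3.72, 5.05, 3.00 and 3.65 at 40 min, a difference of 1.41 (SE 0.36, adjusted p = 0.146). MET14 and MET16, the next enzymes of the path, differed by 0.93 (SE 0.38) and 0.65 (SE 0.24). These genes lay at the far end of the ratios at both times, and with arrays scaled to the same spread the list median turned to -0.28, and to -0.31 after quantile normalization.

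The median difference of the permeases for sulfate and sulfur compounds kept its sign under both scalings, at 1.46 as deposited, 0.40 after scaling and 0.46 after quantile normalization. All 8 measured were higher, 5 of them separated (62.5%, beside 9.43% of all genes) and 3 called in the random-block fit (37.5%, beside 2.67%). SUL1, a sulfate permease, had 2.44, 2.08 and 3.58 on 3 arrays at 60 min and 0.52, 0.41, 1.15 and 0.58 at 40 min, a difference of 1.97 (SE 0.47, adjusted p = 0.146). YCT1, a cysteine transporter, had 2.46, 2.25, 2.17 and 2.72 at 60 min and 1.08, 1.01, 0.01 and 1.24 at 40 min, a difference of 1.56 (SE 0.32, adjusted p = 0.146). SUL2, the other sulfate permease, had the largest ratio of the list at both times, 6.83, 8.13, 5.49 and 5.25 at 60 min and 4.17, 5.28, 2.66 and 4.49 at 40 min, a difference of 2.27 (SE 0.67, adjusted p = 0.154). Its difference was -0.29 after scaling and 0.11 after quantile normalization, so its direction was not stable. MUP1, the high-affinity methionine permease, had 2.20, 1.57, 1.80 and 1.30 at 60 min and 1.38, 1.52, 1.01 and 1.72 at 40 min, a difference of 0.31 (SE 0.29, adjusted p = 0.537) that became -0.38 after scaling and -0.41 after quantile normalization. Transsulfuration and methionine cycle genes had a small shift: their median difference was 0.32 over 13 genes as deposited and -0.50 after scaling. STR3, a cystathionine beta-lyase, differed by 1.32 (SE 0.35) with overlapping arrays, and SAH1, the S-adenosylhomocysteine hydrolase, had -0.59, -0.87, -1.01 and -0.80 at 60 min and -0.13, 0.32, 0.58 and -0.13 at 40 min, a difference of -0.98 (SE 0.31, adjusted p = 0.16). MET30, the F-box protein that restrains the activator Met4, had 1.92, 1.42, 1.82 and 1.85 at 60 min and 0.62, 0.92, 0.26 and 0.82 at 40 min, a difference of 1.10 (SE 0.25, adjusted p = 0.146).

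Phosphate starvation genes showed no common shift. The 15 measured had a median ratio of 0.75 at 60 min and 0.71 at 40 min, with 7 higher, 8 lower, 1 separated and 0 called in the random-block fit. PHO84, the high-affinity phosphate transporter, had 1.49, 0.86, 1.66 and 1.35 at 60 min and 1.28, 1.34, 1.50 and 1.66 at 40 min, a difference of -0.10 (SE 0.24, adjusted p = 0.811). PHO5, the secreted acid phosphatase, had 2.09, 2.21, 2.70 and 2.43 at 60 min and 1.82, 2.23, 2.35 and 2.29 at 40 min, a difference of 0.19 (SE 0.47). SPL2, an inhibitor of low-affinity phosphate transport, had -1.03, -1.57, 0.47 and 0.72 at 60 min and 0.68, 0.99, 0.98 and 0.58 at 40 min, a difference of -1.16 (SE 0.65, adjusted p = 0.34), with arrays 1 and 2 of 60 min below 0 and arrays 3 and 4 above it. The list median was -0.10 as deposited and -0.29 after scaling.

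Histone genes, most of which are transcribed in S phase, were low at 40 min and lower at 60 min. All 10 were lower at 60 min, with a median ratio of -1.73 at 60 min and -0.73 at 40 min. Of them 9 were separated and 9 passed in the random-block fit (90% each, beside 12.9% and 7.06% of all genes). HTA2, a histone H2A gene, had -2.89, -3.31, -3.11 and -3.12 at 60 min and -1.37, -1.13, -1.66 and -1.71 at 40 min, a difference of -1.64 (SE 0.44, adjusted p = 0.15). HHF1, a histone H4 gene, had -2.58, -2.86, -2.57 and -2.66 at 60 min and -1.15, -0.98, -1.19 and -1.37 at 40 min, a difference of -1.50 (SE 0.32, adjusted p = 0.146). HHO1, the linker histone, had -1.08, -1.70, -1.60 and -2.15 at 60 min and -0.22, -0.05, -0.60 and -0.77 at 40 min, a difference of -1.23 (SE 0.30, adjusted p = 0.146). The member that was not separated was HTZ1, the H2A variant made outside S phase as well, at -0.28, -0.99, -0.50 and -0.56 at 60 min and -0.43, 0.24, 0.47 and -0.06 at 40 min, a difference of -0.64 (SE 0.28, adjusted p = 0.254). The median difference was -1.02 as deposited and -0.35 after scaling. Copies of a core histone gene are nearly identical, so their spots may read each other.

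Most cell cycle genes outside the histones were lower at 60 min as deposited. Of 25 G1 and S phase genes 21 were lower, with medians of -1.92 at 60 min and -1.11 at 40 min. On the lower side 4 were separated (16%, beside 12.9% of all genes) and 3 called (12%, beside 7.06%). The median difference of -0.40 flipped to 0.19 after scaling. Of 15 mitotic genes 13 were lower, with a median difference of -0.37 as deposited and -0.20 after scaling. In this list 4 were separated on the lower and 2 on the higher side (26.7% and 13.3%, beside 12.9% and 9.43% of all genes). PCL1, a G1 cyclin of Pho85, had -3.18, -3.85, -3.64 and -3.56 at 60 min and -2.25, -1.56, -2.33 and -2.54 at 40 min, a difference of -1.39 (SE 0.43, adjusted p = 0.156). FKH1, a forkhead factor of G2 and M phase genes, had -1.72, -2.16, -2.61 and -2.53 at 60 min and -0.84, -0.64, 0.01 and -0.51 at 40 min, a difference of -1.76 (SE 0.47, adjusted p = 0.149). CLB1, a mitotic cyclin, had -1.70, -1.22, -1.61 and -0.98 at 60 min and -0.51, -0.45, -0.21 and -0.70 at 40 min, a difference of -0.91 (SE 0.34, adjusted p = 0.195), and ALK1, a haspin-like kinase of mitosis, differed by -1.06 (SE 0.23). DBF2, a kinase of mitotic exit, went the other way with 0.85, 1.19, 1.40 and 1.47 at 60 min and 0.69, 0.68, 0.26 and 0.18 at 40 min, a difference of 0.78 (SE 0.26, adjusted p = 0.173). ASH1, a repressor that acts in daughter cells, had 0.48, 0.28, 0.45 and 0.44 at 60 min and -0.27, 0.06, -0.85 and -0.69 at 40 min, a difference of 0.85 (SE 0.28, adjusted p = 0.171).

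The GTP branch of purine synthesis was lower at 60 min and most of the path to IMP slightly higher. All 6 measured genes of the GTP branch were lower, with medians of -2.48 at 60 min and -1.31 at 40 min. Of them 4 were separated and 4 called in the random-block fit (66.7% each, beside 12.9% and 7.06% of all genes). IMD3, an IMP dehydrogenase, had -2.63, -2.48, -3.28 and -3.02 at 60 min and -1.37, -1.26, -1.28 and -1.48 at 40 min, a difference of -1.51 (SE 0.44, adjusted p = 0.154). IMD4 and IMD2, close relatives whose spots may read each other, differed by -1.40 (SE 0.40) and -1.34 (SE 0.46). GUA1, GMP synthase, had -1.91, -2.28, -2.59 and -2.23 at 60 min and -1.15, -0.72, -0.24 and -0.37 at 40 min, a difference of -1.63 (SE 0.43, adjusted p = 0.147). GUK1, guanylate kinase, differed by -1.08 (SE 0.35), and HPT1, the salvage phosphoribosyltransferase, by -0.36 (SE 0.38), which became 0.48 after scaling. Of the 12 genes of the path to IMP, 11 were higher, with a median difference of 0.34 as deposited and 0.20 after scaling. Their array medians were -0.13, -0.18, 0.48 and 0.57 at 60 min and -0.40, -0.26, 0.26 and -0.02 at 40 min. The times thus overlapped, with arrays 1 and 2 of 60 min below 0 and arrays 3 and 4 above it. ADE2 of that path had 0.47, 0.94, 1.30 and 1.59 at 60 min and 0.10, -0.27, 0.33 and 0.39 at 40 min, a difference of 0.94 (SE 0.31, adjusted p = 0.169). The median difference of the GTP branch was -1.37 as deposited and -0.37 after scaling.

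Most genes of protein turnover and nitrogen use were somewhat higher at 60 min. Of 30 proteasome subunits 23 were higher at 60 min, with a median difference of 0.37 as deposited and 0.18 after scaling. Separated were 7 on the higher side and 1 on the lower (23.3% and 3.33%, beside 9.43% and 12.9% of all genes). RPN7, a lid subunit, had 0.95, 0.50, 0.82 and 1.10 at 60 min and 0.03, -0.31, 0.27 and -0.18 at 40 min, a difference of 0.89 (SE 0.24, adjusted p = 0.152), and RPT1, an ATPase of the base, differed by 0.92 (SE 0.27). SCL1, an alpha subunit of the core, went against the list with -0.45, -1.07, -0.86 and -1.03 at 60 min and -0.24, 0.21, 0.37 and -0.05 at 40 min, a difference of -0.93 (SE 0.23, adjusted p = 0.146). Among 24 autophagy genes 17 were higher and 4 separated on the higher side (16.7%, beside 9.43% of all genes). Their median difference was 0.28 as deposited and 0.05 after scaling. ATG1, the initiating kinase, had 1.79, 2.78, 2.26 and 3.47 at 60 min and 1.39, 0.76, 0.19 and 0.55 at 40 min, a difference of 1.85 (SE 0.35, adjusted p = 0.146). ATG17, a scaffold that recruits Atg1 in starved cells, had 0.71, 1.34 and 1.31 on 3 arrays at 60 min and -0.20, 0.30, -0.02 and -0.20 at 40 min, a difference of 1.05 (SE 0.31, adjusted p = 0.156). Of 13 nitrogen catabolite genes 12 were higher and 4 separated on that side (30.8%, beside 9.43% of all genes). The median difference of this list was 0.29 as deposited and 0.16 after scaling. GAT1, an activator of these genes, had 1.19, 0.85, 0.94 and 0.94 at 60 min and -1.01, -0.16, -0.32 and -0.18 at 40 min, a difference of 1.40 (SE 0.35, adjusted p = 0.146), so its sign differed between the times. GAP1, the general amino acid permease, had 0.72, -0.38 and -0.05 on 3 arrays at 60 min and -0.53, -0.54, -1.70 and -2.25 at 40 min, a difference of 1.51 (SE 0.50, adjusted p = 0.17), and AGP1, an amino acid permease, had 0.58, 0.34, 0.27 and -0.15 at 60 min and -0.37, -0.43, -1.58 and -0.62 at 40 min, a difference of 1.01 (SE 0.34, adjusted p = 0.177). After scaling, the differences of GAT1, GAP1 and AGP1 were 1.02, 1.49 and 0.87.

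Cell wall genes lay on both sides. Of 23 measured, 4 were separated on the higher and 3 on the lower side (17.4% and 13.0%, beside 9.43% and 12.9% of all genes). In the random-block fit 4 and 2 passed (17.4% and 8.70%, beside 2.67% and 7.06%). The median difference was -0.24 as deposited and -0.19 after scaling. PIR3, a wall protein with internal repeats, had 2.60, 2.58, 3.62 and 3.59 at 60 min and 1.35, 1.57, 1.14 and 1.49 at 40 min, a difference of 1.71 (SE 0.52, adjusted p = 0.156). CHS1, the chitin synthase that repairs the septum, had 1.46, 1.97, 2.12 and 1.21 at 60 min and 0.55, 0.02 and 0.39 on 3 arrays at 40 min, a difference of 1.35 (SE 0.25, adjusted p = 0.146). GSC2, the stress-induced glucan synthase, had 1.66, 1.87, 2.17 and 1.26 at 60 min and 0.08, 0.10, -0.61 and 0.91 at 40 min, a difference of 1.62 (SE 0.49, adjusted p = 0.156). GAS1, a glucanosyltransferase of growing walls, had -2.07, -2.40, -2.20 and -2.41 at 60 min and -1.20, -0.80, -1.44 and -1.32 at 40 min, a difference of -1.08 (SE 0.35, adjusted p = 0.167) and, like TOS6 above, was lower at 60 min. Of 13 genes of the calcineurin list 5 were separated on the higher and 1 on the lower side (38.5% and 7.69%, beside 9.43% and 12.9%). The median difference of the list was 0.22 as deposited and 0.10 after scaling. In it CMK2, a calmodulin kinase and calcineurin target, had 1.70, 1.15, 1.03 and 1.49 at 60 min and 0.81, -0.15, 0.50 and 0.41 at 40 min, a difference of 0.95 (SE 0.39, adjusted p = 0.227), while CNA1, a catalytic subunit of calcineurin, had -1.34, -1.46, -0.58 and -0.74 at 60 min and -0.39, -0.10 and 0.09 on 3 arrays at 40 min, a difference of -0.95 (SE 0.30, adjusted p = 0.156).

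Of 18 iron genes 12 were higher and 6 lower, with 1 separated on the higher and 3 on the lower side, near the shares of all genes (9.43% and 12.9%). Their median difference was 0.09 as deposited and 0.07 after scaling. FET3, the multicopper oxidase of high-affinity uptake, had -1.71, -2.17, -2.11 and -1.65 at 60 min and -1.13, -0.83, -0.78 and -0.77 at 40 min, a difference of -1.03 (SE 0.23, adjusted p = 0.146), and FTR1, its permease partner, had -2.21, -2.66, -3.02 and -2.37 at 60 min and -1.71, -1.81, -1.82 and -1.58 at 40 min, a difference of -0.84 (SE 0.26, adjusted p = 0.156). SIT1, a siderophore transporter, had -2.40, -2.76, -3.57 and -2.55 at 60 min and -1.69, -1.64, -1.63 and -2.23 at 40 min, a difference of -1.02 (SE 0.87, adjusted p = 0.502). HMX1, haem oxygenase, had 3.86, 2.93, 4.02 and 3.88 at 60 min and 3.16, 1.91 and -0.58 on 3 arrays at 40 min, a difference of 1.76 (SE 0.72, adjusted p = 0.223), with array 4 of 40 min below 0. TIS11, which destabilises mRNAs in low iron, had 1.70, 1.66, 2.03 and 2.04 at 60 min and 0.64, 0.78 and 0.69 on 3 arrays at 40 min, a difference of 1.17 (SE 0.34, adjusted p = 0.154). After scaling FET3 was at -0.31, while FTR1 and SIT1 flipped to 0.13 and 0.10. SER33, a phosphoglycerate dehydrogenase of serine synthesis, had 2.95, 3.05, 3.37 and 3.24 at 60 min and 1.71, 1.96, 2.11 and 2.02 at 40 min, a difference of 1.20 (SE 0.23, adjusted p = 0.146), and scaling left it at 0.00. Of 19 thioredoxins, glutaredoxins and peroxiredoxins 8 were higher and 11 lower, with 1 separated on the higher and 2 on the lower side and a median difference of -0.10 as deposited and -0.19 after scaling. The largest differences of this list were on the lower side: GRX4, a glutaredoxin of iron regulation, had -1.17, -1.51, -0.94 and -0.81 at 60 min and -0.31, 0.26, 0.28 and -0.08 at 40 min, a difference of -1.15 (SE 0.27, adjusted p = 0.146), and TRX1, a thioredoxin, had -0.31, -1.19, -1.39 and -1.29 at 60 min and -0.29, 0.09, 0.68 and -0.03 at 40 min, a difference of -1.16 (SE 0.43, adjusted p = 0.195).

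The 4 potassium and sodium transporters measured had a median difference of 0.13 as deposited and 0.21 after scaling, with 0 separated on either side. TRK1 had -0.05, 0.43, 0.07 and -0.23 at 60 min and 0.08, -0.26 and -0.25 on 3 arrays at 40 min, a difference of 0.14 (SE 0.28, adjusted p = 0.768). TRK2 had 0.60, 0.06 and -0.21 on 3 arrays at 60 min and -0.35, 0.02, -1.33 and -0.31 at 40 min, a difference of 0.76 (SE 0.35, adjusted p = 0.277). PMA1, the proton pump, had 1.39, 1.29, 0.19 and 0.28 at 60 min and 0.48, 0.28, -0.08 and 0.40 at 40 min, a difference of 0.52 (SE 0.38, adjusted p = 0.439), with arrays 1 and 2 of 60 min above all others. TOK1, the outward potassium channel, differed by -0.39 (SE 0.24), and ENA2, a sodium pump whose copies are nearly identical, by 0.11 (SE 0.40). The 8 genes of the pump and Trk regulation had a median difference of 0.55 as deposited, 0.12 after scaling and 0.17 after quantile normalization. Of them 6 were higher and 2 lower. Separated were 3 on the higher and 1 on the lower side (37.5% and 12.5%, beside 9.43% and 12.9% of all genes). HAL5, a kinase that stabilises Trk1 and other transporters at the membrane, had 1.37, 1.23, 0.81 and 1.76 at 60 min and 0.62, 0.78, 0.06 and 0.06 at 40 min, a difference of 0.91 (SE 0.27, adjusted p = 0.156). VHS3, an inhibitor of the Ppz phosphatases that restrain Trk1, had 2.22, 2.27, 2.20 and 2.31 at 60 min and 1.40, 1.87, 0.48 and 1.07 at 40 min, a difference of 1.04 (SE 0.33, adjusted p = 0.156). Both were separated and both passed in the random-block fit (adjusted p = 0.0481 and 0.0479). ACT1, actin, had 0.50, -0.47, -0.24 and -0.21 at 60 min and 0.04, 0.48, 0.30 and 0.09 at 40 min, a difference of -0.33 (SE 0.25, adjusted p = 0.459). Of the mating genes, BAR1, the protease that degrades alpha-factor, differed by 0.74 (SE 0.25), FIG2, an adhesin of mating, by 1.66 (SE 0.53), and FUS1, a fusion protein, by 0.73 (SE 0.30). Their list median of 0.47 over 17 genes flipped to -0.12 after scaling.

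**Figure D5:**
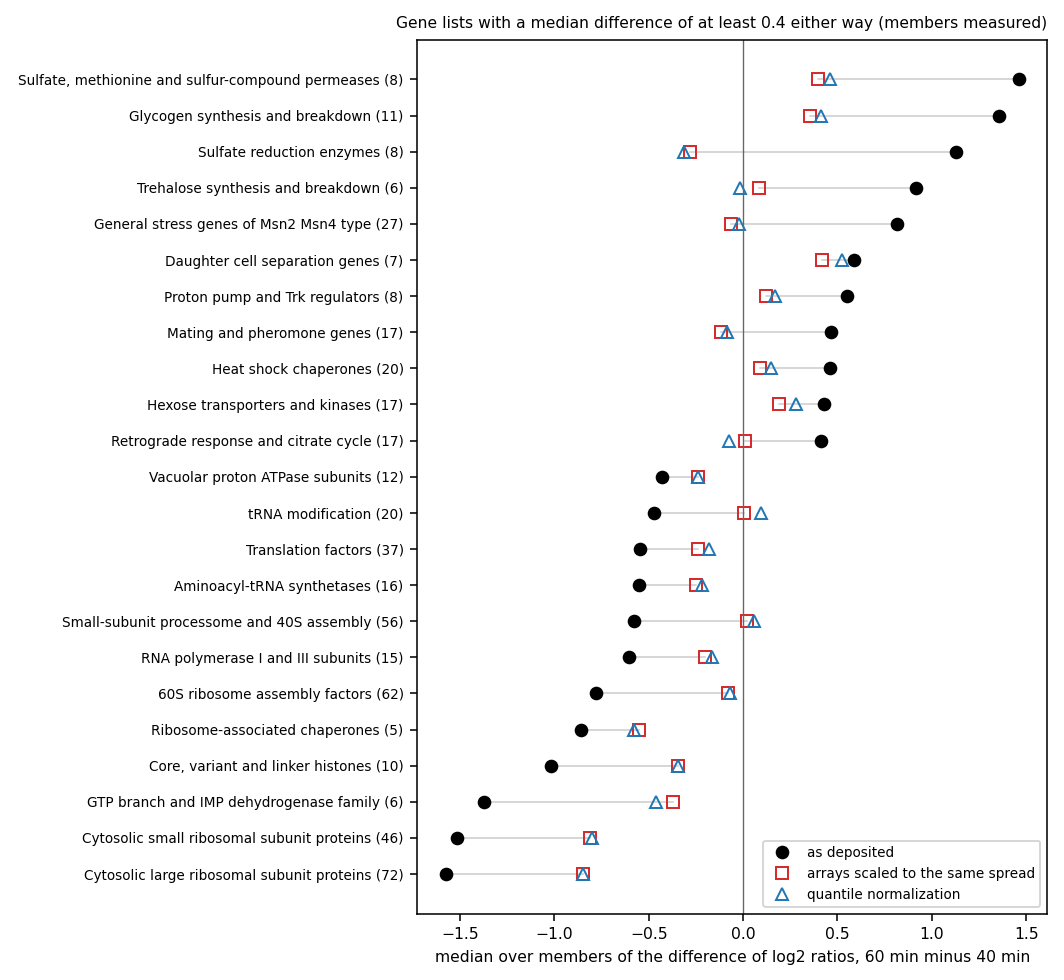
Median over members of the difference of log2 ratios, 60 min minus 40 min, for the 23 gene lists whose median is at least 0.4 away from 0 (members measured in brackets), as deposited (circles), with arrays scaled to the same spread (squares) and after quantile normalization (triangles). The ribosomal protein lists keep medians of -0.85 and -0.81 after scaling, while sulfate reduction turns to -0.28.

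The remaining lists were nearer to 0 or small. Over all genes 9.43% were separated on the higher and 12.9% on the lower side. Of 25 genes of the respiratory chain and the mitochondrial ATP synthase none was separated, with a median difference of -0.15 as deposited and -0.23 after scaling. The 49 genes of amino acid synthesis outside serine and sulfur had a median difference of -0.30 as deposited and -0.26 after scaling, with 2 separated on the lower side. Ergosterol synthesis genes, 23 in number, had -0.17 as deposited and 0.02 after scaling, so their sign flipped. The 12 subunits of the vacuolar proton ATPase had -0.43 as deposited and -0.24 after scaling, and the 15 genes of mitochondrial protein import -0.33 and -0.19. In each of these lists 2 were separated, on the lower side (16.7% and 13.3%), near the share of all genes. The 10 genes of protein folding in the endoplasmic reticulum had 0.04 as deposited and 0.14 after scaling, and the 13 of phospholipid and fatty acid synthesis -0.05, which turned to 0.03 after scaling. The 7 genes of daughter cell separation had 0.59 as deposited and 0.42 after scaling, with 3 separated on the higher side. Retrograde response and citrate cycle genes, 17 in number, had 0.41 and 0.01, with 4 separated on the higher side, CIT2 among them.

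The 390 genes of the random-block fit were placed by where they stood at 40 min. The random-block fit, with 936 genes apart from 0 at 40 min, was also used for the tests against 0 here, and it passes more genes than the fit on experiment values, with 345. Most had started after 40 min: 210 lower and 42 higher genes had a 40 min mean within 0.5 of 0 and passed the test at 60 min. Of the 210, 99 were cytosolic ribosomal proteins, and 121 belonged to any of the lists. A further 57 lower and 46 higher genes deepened, that is, they had passed the test against 0 at 40 min in the random-block fit with the same sign. The lower ones held 9 assembly factors, 8 histones, 4 polymerase subunits and 3 genes of the GTP branch, and the higher ones 5 sulfur genes and 3 of trehalose and glycogen. Another 15 lower and 15 higher genes grew, with a 40 min mean at least 0.5 from 0 that had not passed. No gene turned from at least 0.5 on 1 side to at least 0.5 on the other. The 40 min mean is part of the difference, so the classes are descriptions with no test. After scaling or quantile normalization the random-block fit called 0 genes, so the classes held none. Of the 5 deepened sulfur genes, MET1, MET5, MET10 and SUL2 went to -0.09, -0.25, -0.22 and -0.29 after scaling, and MUP3 to 0.78. The median of the assembly factors went to -0.04 and that of the ribosomal proteins to -0.83.

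Outside the lists, the genes that started included GYP7, a GTPase-activating protein of vacuolar traffic, at 2.33, 1.77, 1.78 and 1.31 at 60 min and 0.53, 0.53 and -0.33 on 3 arrays at 40 min, a difference of 1.69 (SE 0.36, adjusted p = 0.146), and AIM39, at 1.61, 1.17, 1.01 and 1.33 at 60 min and 0.23, -1.44, 0.05 and 0.34 at 40 min, a difference of 1.49 (SE 0.31, adjusted p = 0.146). SRO9, an RNA-binding protein found with translating ribosomes, deepened, at -1.90, -2.65, -2.84 and -2.73 at 60 min and -1.19, -0.41, -1.05 and -0.54 at 40 min, a difference of -1.73 (SE 0.28, adjusted p = 0.146). FMO1, a flavin monooxygenase of the secretory pathway, grew, at 3.08, 2.64, 2.57 and 2.77 at 60 min and 0.94, 1.70, 0.31 and 0.94 at 40 min, a difference of 1.80 (SE 0.33, adjusted p = 0.146). Besides GPP1, 4 genes eased, all with a 40 min mean below -0.5 and a 60 min mean near or above 0. KCS1, an inositol hexakisphosphate kinase, had 0.07, 0.91, 0.45 and 0.42 at 60 min and -0.40, -0.47, -0.72 and -0.99 at 40 min, a difference of 1.11 (SE 0.28, adjusted p = 0.148). HRP1, an mRNA 3' end factor, had 0.09, 0.15, 0.15 and 0.46 at 60 min and -0.56, -0.55, -0.59 and -1.23 at 40 min, a difference of 0.94 (SE 0.24, adjusted p = 0.147). PRP8, the core spliceosome protein, differed by 0.90 (SE 0.32), and HFI1, a subunit of the SAGA complex, by 0.90 (SE 0.29). These 5 kept their sign after scaling, from -1.18 for GPP1 to 0.95 for KCS1.

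Whether this step differed from the 20 min before it was tested directly on the 3822 genes with values at 20, 40 and 60 min. The contrast of the step from 40 to 60 min against the step from 20 to 40 min called 0 genes in limma (0%), with 61 at an unadjusted p under 0.05 (1.6%) and a lowest adjusted p of 0.98. So no gene was shown to differ between the steps. The steps share the 40 min arrays, and the values below are given side by side only. The ribosomal protein genes had median ratios of 0.15, -0.26, -1.85 and -2.28 after 20, 40, 60 and 120 min. Assembly factors had -0.10, -1.07, -1.71 and -0.88 at the same times, so their median was lowest at 60 min. No test of the change to 120 min is given. At 120 min some factors were split by array, such as MRT4 with -0.46, -0.63, -3.55 and -3.46 and BRX1 with -1.50, -0.98, -2.39 and -2.79. NSA1 was not, with 0.89, 1.06, 1.02 and 0.97. Heat shock chaperones had -0.29, 0.47, 0.89 and -0.11, highest at 60 min. Histones had -0.13, -0.73, -1.73 and -1.25. Of these 4 lists only the ribosomal proteins had a 120 min median farther from 0 than the 60 min median. The medians run over the members with a value at each time, which are not the same at every time.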

How the data were processed

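Log2 ratios of spotted 2-colour arrays, 1 per gene and array, were used as the authors deposited them. Per the labels, cDNA was made from 8 µg of total RNA by indirect dUTP labelling, and the authors dropped spots smaller than 120 µm or dimmer than 100 units in both dyes. How background was corrected and arrays were normalized is not given in the sources used here. Titles and range make base 2 and the direction K-free over KCl likely, without stating them. Gene IDs were matched to RefSeq R64 names (5644 exactly, 18 after capitals, 550 unmatched and kept as given), with no positions since the arrays' build is not named. Arrays 1 and 2, and 3 and 4, have opposite dyes and were averaged to 2 experiment values a time point. A mean per time point was fitted to all 18 arrays in limma 3.58.1 (R 4.3.3), and the contrast of 60 minus 40 min was adjusted by Benjamini-Hochberg over 4010 genes (two-sided, threshold 0.05). Only the labels say that the experiments were independent. The procedure was also run on simulated data with known changes, and the outcome is not given here. Genes were named by a rule: the 12 largest separated differences each way, up to 6 per class and direction, up to 4 per list of 55, and fixed genes (ENA1 was not tested). The members and lists were chosen with earlier results of these data known. K-free was in Cy5 on arrays 1 and 4 at both times. A fixed dye effect is therefore the same at both for the 3065 genes with all 8 values. For genes that lack an array, among them GRE1, MUP3, CYB2 and ATG8, it need not be the same. Of genes with 3 values at 40 min, 693 lacked them at 60 min and 117 the reverse; these are not compared. The array number limits the precision.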

Additional observations from a re-analysis of the deposited data

Results flagged for a closer look

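In 13 of 367 groups of 4 arrays, formed by the named genes and the list medians at each time, 1 array stood far from the other 3. Chance alone gives such a gap in about 1 in 20 groups. At 60 min the values were 1.56 on array 3 for GSY1, -1.04 on array 1 for RPE1, 0.411 on array 1 for HXK2, 0.459 on array 4 for HRP1 and 2.93 on array 2 for HMX1. At 40 min they were -0.33 on array 3 for PDC6, 0.391 on array 3 for TEF4, -1.18 on array 1 for RPE1, -1.23 on array 4 for HRP1, -2.23 on array 4 for SIT1, -1.34 on array 3 for ENA2 and -1.44 on array 2 for AIM39. The median of the 5 peroxisomal beta-oxidation genes was -0.237 on array 3 at 40 min, with the other arrays above 0. These are log2 ratios K-free over KCl. For RPE1 the same array, 1, stood apart at both times, as the highest at 60 min and the lowest at 40 min.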

How the results depend on the processing

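The count of genes that passed for the step, 0 on experiment values, depended on how arrays were treated. With the other pairing of arrays, arrays as replicates, a random block for the experiment, or a dye term, 791, 756, 390 or 712 genes passed (242, 264, 107 or 237 higher and 549, 492, 283 or 475 lower), of which 784, 747, 390 or 707 fell into a class and 338, 315, 199 or 299 into a list. All 390 genes of the random-block fit were among those called with each array as a replicate and with a dye term. Those fits use the same array values without the block, so this overlap adds no support. Leaving out arrays or experiments gave 0 to 13 genes, 0 to 3 higher, 0 to 10 lower, 0 to 13 in classes and 0 to 3 in lists; the highest came without experiment A of 60 min, where the remaining experiment is assumed to vary like the other groups and the 3 higher genes were UGA2 (4.44), MUP3 (3.97) and IMP2 (4.92), named after their values were seen. Whether the replicate numbers pair samples across times is not settled. With the replicate number as a block 0 genes passed, as without it, so this count cannot decide. Deviations of experiment A from B correlated at -0.0385 between 40 and 60 min. They correlated at 0.211 between 20 and 40 min and at 0.418 between 60 and 120 min. Deviations of single arrays with the same number at 40 and 60 min correlated at -0.364, -0.0751, 0.0223 and -0.299 for arrays 1 to 4. Of genes apart from 0, 345 passed at 40 min and 1912 at 60 min. The 40 min count was 1225 with the other pairing, 1354 with each array, 936 with the random block, 1286 with a dye term, 670 after scaling, 816 after quantile normalization, 40 at an adjusted p of 0.01, 764 at 0.1, and 1284 or 1323 with the random block after scaling or quantile normalization. The 60 min count was 1171 after scaling, 1134 after quantile normalization and 1191 at an adjusted p of 0.01. Leaving out arrays or experiments gave 23 to 427 at 40 min, with 222 without array 3 of 40 min and 39 without experiment B, and 1034 to 1985 at 60 min. Both fits with the random block and a rescaling were added after seeing the data; they called 1 and 2 genes for the step against the one before it, HXT3 (2.56 after scaling, 2.96 after quantile normalization) and TFS1 (-3.64 after quantile normalization), neither chosen by the naming rule.

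Medians of 12 of 53 lists changed sign after scaling and of 14 after quantile normalization. Genes whose difference changed sign after scaling were HPT1 (0.48), SUL2 (-0.29), MUP1 (-0.38), MET1 (-0.0905, and -0.0894 with the random block), MET3 (-0.63), MET5 (-0.25 and -0.22), MET10 (-0.22 and -0.29), MET14 (-0.94), MET16 (-0.83), STR3 (-0.71), PHO5 (-0.72), HSP12 (-0.29), ALD3 (-0.12), CTT1 (-0.0826), TPS1 (-0.0701), FTR1 (0.13), SIT1 (0.10), SER33 (-0.00026) and FUS1 (-0.28). After quantile normalization they were HPT1 (0.48), MUP1 (-0.41), MET3 (-0.32), MET5 (-0.0255, and -0.0457 with the random block), MET10 (-0.10 and -0.20), MET14 (-0.53), MET16 (-0.64), STR3 (-0.18), PHO5 (-0.80), HSP12 (-0.32), CTT1 (-0.12), TPS1 (-0.10), FTR1 (0.10) and FUS1 (-0.22). Leaving out arrays or experiments changed the sign of ENA2 (-0.14 to 0.37), HSP12 (-0.61 to 0.88), PHO84 (-0.27 to 0.0638), GPD1 (-0.44 to 0.0153), TRK1 (-0.0215 to 0.31), PMA1 (-0.0378 to 1.08) and PHO5 (-0.02 to 0.39). The cause of these changes was not tested. With 2 experiments a time point the spread rests on few values, spots below the authors' signal limit are missing, and whether the wider ratios at 60 min reflect RNA or array gain cannot be told apart. The promoter search was not run, since no promoter sequence was used here.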
